A study of Mus musculus with 6 samples.

Results

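The genes described here are 10 imprinted growth genes, Phlda2, H19, Igf2, Igf2r, Dlk1, Peg3, Mest, Cdkn1c, Grb10 and Plagl1, in mouse hepatocellular carcinoma cells. They were chosen by name, as imprinted genes of fetal growth that are often expressed again in liver tumours, and every probe set that the platform annotation assigns to 1 of them alone was taken. This gave 20 of the 45101 probe sets on the array and covered 9 of the 10 genes. The annotation assigns H19 a probe set that it shares with Mir675, so by this rule H19 was not analysed here. For the gene-level test the brightest probe set of each gene, on average over the arrays, was taken, which gave a table of 18193 genes.

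The samples were 6 Affymetrix arrays of total RNA, 2 for each of 3 lines grown in DMEM with 10% FBS. I1 and M1 are the selected lines, migratory subpopulations of BL185 that are titled as subclones. BL185 is their parent line. No other treatment or genetic change is given for any of the lines, and no subclone without the selection was measured, so selection and subcloning cannot be told apart. Nothing states that the 2 arrays of each line stand for separate cultures, so p-values reflect the spread among arrays alone, which could be technical. Both comparisons with the parent share its 2 arrays.

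An imprinted gene is transcribed mainly from the copy inherited from 1 parent, because DNA methylation set in the egg or sperm marks the copies differently. In the mouse, Igf2, Dlk1, Peg3, Mest and Plagl1 are expressed mainly from the paternal copy, and H19, Phlda2, Cdkn1c, Igf2r and, in most tissues, Grb10 from the maternal copy. Many of the paternally expressed genes promote growth of the fetus and many of the maternally expressed ones restrain it. Fetal liver expresses several of them at high levels and adult liver shuts most of them down. The arrays measure RNA from both copies together.

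The lines were not measured equally well. The correlation between the 2 arrays of a line over all probe sets was 0.994 in I1, 0.910 in M1 and 0.997 in BL185. Over the brightest probe set of each of the 18193 genes, the SD between replicates was 0.16, 0.65 and 0.10 log2 units in the same lines. The signals of M1 replicate 1 were the most compressed, with an SD over probe sets of 1.62 against 1.83 to 1.97 on the other arrays. The control for 18S ribosomal RNA read 11.39 ± 0.17 in I1, 11.59 ± 1.28 in M1 and 10.13 ± 0.02 in BL185, and the 3′ minus 5′ difference of Actb 1.45 ± 0.03, 1.34 ± 0.14 and 0.98 ± 0.14 (SD, n = 2). The part of these differences in the results below was not tested. As for the label, the hepatocyte transcription factor Hnf4a was bright (11.94 to 13.34 over the 6 arrays). So were the epithelial keratins Krt8 and Krt18 (14.78 to 15.23). Of the bile duct markers, Krt19 (14.59 to 15.08), Epcam (10.57 to 11.27) and Sox9 (9.13 to 11.48) were bright too, and Krt7 (6.80 to 7.42) was not. Albumin, Alb (7.53 to 8.43), lay around the array medians of 7.87 to 8.11. Alpha-fetoprotein, Afp (7.14 to 9.89), lay around or below them except on M1 replicate 1, where it read 9.89 against 7.15 on M1 replicate 2. Of 14 markers of stellate, endothelial and leukocyte cells, 1 (Csf1r) had a mean log2 signal of at least 9 over the 6 arrays. The list means were 7.63 and 7.79 in I1, 7.95 and 7.61 in M1 and 7.45 and 7.52 in BL185 for stellate markers, 7.50 and 7.48, 7.67 and 7.46, and 7.31 and 7.39 for endothelial markers, and 8.06 and 7.91, 8.29 and 7.70, and 8.56 and 8.53 for leukocyte markers. The macrophage marker Cd68 was above 9 in the parent alone, with 7.78 and 7.41 in I1, 7.51 and 7.37 in M1 and 10.74 and 10.56 in BL185. It fell in I1 (log2 change −3.05, limma adjusted p = 0.0262) and in M1 (−3.21, adjusted p = 0.0147). The bile duct list averaged 10.81 and 10.89 in I1, 10.61 and 10.62 in M1 and 10.94 and 11.10 in BL185, and the hepatocyte list 10.67 and 10.79, 10.73 and 10.61, and 10.47 and 10.55. Of these lists, the bile duct factor Sox9 (−2.06, adjusted p = 0.0343) and the fibrinogen chain Fgb (−1.78, adjusted p = 0.0469) fell in M1. In I1 both lay below the parent too, but Sox9 (−1.35, adjusted p = 0.0996) and Fgb (−1.93, adjusted p = 0.0501) did not pass. Whether such cells take part in the results below was not tested.

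Of the 9 genes measured, 3 had a probe set with a mean log2 signal of at least 9, well clear of the array medians. These were Phlda2, Igf2r and Grb10, all expressed from the maternal copy in the mouse. The other 6 genes were dimmer. By the probe set used, Igf2 (mean 8.64) lay above the median on all 6 arrays. Dlk1, Peg3, Mest, Plagl1 and Cdkn1c (means 7.55 to 8.20) lay around or below the medians. No detection calls were at hand to say whether such low signals exceed background. The stretches around the transcription starts of the 3 bright genes are shown with their CpG sites, at which DNA can be methylated. Whether the methylation that sets the imprint of these genes lies in these stretches was not tested. They run from 250 bases before to 50 bases after the start, 5′ to 3′ on the gene's strand, with each CG in capitals, and come from RefSeq (GRCm38.p6), whose table held 8 of the 10 genes. Phlda2 is at chr7:143502475-143502774, Igf2r at chr17:12769657-12769956 and Grb10, at the more upstream of its 2 listed starts, at chr11:12037371-12037670, all on the minus strand.
Phlda2: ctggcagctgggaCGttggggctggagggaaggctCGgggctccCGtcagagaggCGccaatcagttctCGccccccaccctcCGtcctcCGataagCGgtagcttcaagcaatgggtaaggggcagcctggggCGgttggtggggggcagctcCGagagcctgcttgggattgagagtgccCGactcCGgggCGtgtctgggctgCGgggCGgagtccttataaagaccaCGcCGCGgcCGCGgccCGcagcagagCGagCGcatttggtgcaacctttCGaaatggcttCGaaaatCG
Igf2r: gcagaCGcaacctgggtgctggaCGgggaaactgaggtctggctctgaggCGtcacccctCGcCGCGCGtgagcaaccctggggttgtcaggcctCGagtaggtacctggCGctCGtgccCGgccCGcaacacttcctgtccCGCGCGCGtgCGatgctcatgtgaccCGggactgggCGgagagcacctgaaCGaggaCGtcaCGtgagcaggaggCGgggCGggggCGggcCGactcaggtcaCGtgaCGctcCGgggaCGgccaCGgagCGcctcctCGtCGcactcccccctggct
Grb10: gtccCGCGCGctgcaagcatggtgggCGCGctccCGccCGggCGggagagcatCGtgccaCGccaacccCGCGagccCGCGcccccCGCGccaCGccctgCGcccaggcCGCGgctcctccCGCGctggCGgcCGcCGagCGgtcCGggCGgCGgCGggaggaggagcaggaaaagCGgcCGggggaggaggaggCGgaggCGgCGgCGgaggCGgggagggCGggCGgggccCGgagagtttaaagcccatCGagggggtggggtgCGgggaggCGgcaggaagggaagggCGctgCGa
The Phlda2 stretch held 26 CG, the Igf2r stretch 34 and the Grb10 stretch 45, against a median of 7 over the 32851 promoters of the table. As many as in Phlda2 were found in 16.9% of these promoters, as many as in Igf2r in 7.73% and as many as in Grb10 in 1.93%. Counting both strands, GGGCGG occurred 2 times in Phlda2, 3 times in Igf2r and 5 times in Grb10, and at least once in 35.7% of all promoters. CACGTG, which contains a CG, occurred 2 times in Igf2r and in neither of the other stretches, and 7.15% of all promoters held it. TATAAA occurred once, in Phlda2, and was held by 13.6% of all promoters. These matches describe the letters in the window, and methylation was not measured.

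Phlda2 encodes a small pleckstrin homology domain protein that limits growth of the placenta in the mouse. Its log2 signal was 9.83 and 9.98 on the I1 arrays, 9.32 and 9.49 on the M1 arrays and 10.78 and 10.77 on the BL185 arrays. All 4 arrays of the selected lines lay below both arrays of the parent, with M1 the lowest. In M1 Phlda2 fell, with a mean of 9.41 ± 0.11 against 10.77 ± 0.00 in BL185 (SD, n = 2), a log2 change of −1.37 ± 0.17 (SE; limma, adjusted p = 0.0472) or a 2.58 times higher linear signal in BL185. In I1 the mean was 9.91 ± 0.11, and the change of −0.87 ± 0.17 did not pass the test (adjusted p = 0.144, 95% confidence interval −1.31 to −0.43 before adjustment over genes). The I1 arrays lay above the M1 arrays without overlap, but the difference of 0.50 ± 0.17 did not pass either (adjusted p = 1.00). The M1 change stayed negative under all alternatives, between −1.49 and −0.95. Only quantile normalization, cyclic loess and median centring could have turned its sign. The other alternatives left the estimate as it was or kept the M1 arrays below the parent. The call was lost with a minimum mean of 8, cyclic loess, median centring, an intensity trend, array weights, a replicate block, only the arrays of M1 and BL185, or without any single I1 array (adjusted p = 0.279) or BL185 array (0.673 without replicate 1, 0.640 without replicate 2). It was also lost with a crossed replicate block, an alternative added after the data were seen.

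Igf2r encodes the cation-independent mannose 6-phosphate receptor, which binds the growth factor IGF2 and carries it to the lysosome for breakdown. Its brighter probe set read 9.80 and 9.83 in I1, 10.19 and 9.72 in M1 and 10.88 and 10.86 in BL185. Its other bright probe set read 9.64 and 9.88 in I1, 8.74 and 10.05 in M1 and 10.87 and 10.75 in BL185. Both probe sets placed all 4 arrays of the selected lines below the parent. They differed on M1 replicate 1, where the first lay above and the second below replicate 2. For the brighter probe set the log2 change was −1.05 ± 0.22 in I1 (adjusted p = 0.152, interval −1.60 to −0.51) and −0.91 ± 0.22 in M1 (adjusted p = 0.156, interval −1.45 to −0.36). Neither passed the test over all genes. For the other probe set, in the limma fit over all probe sets, it was −1.05 in I1 (adjusted p = 0.453) and −1.42 in M1 (adjusted p = 0.266). I1 and M1 differed by −0.14 ± 0.22 for the brighter probe set, with an interval of −0.69 to 0.40.

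Grb10 encodes an adaptor that binds the insulin and IGF1 receptors and dampens their signal. Its bright probe set read 12.26 and 12.51 in I1, 11.82 and 12.64 in M1 and 13.27 and 13.35 in BL185. All arrays of both selected lines were again below the parent, and the M1 arrays differed from each other by more than either did from the I1 mean. The log2 change was −0.93 ± 0.31 in I1 (adjusted p = 0.342, interval −1.71 to −0.14) and −1.08 ± 0.31 in M1 (adjusted p = 0.22, interval −1.86 to −0.29), and neither passed. After quantile normalization Grb10 was lower past the threshold in I1 (−0.81, limma adjusted p = 0.03) and in M1 (−0.76, adjusted p = 0.0292). After cyclic loess it was so too (−0.79, adjusted p = 0.0216 in I1 and −0.74, adjusted p = 0.0222 in M1). Of all 18193 genes, 981 in I1 and 1176 in M1 passed after quantile normalization, and 1544 and 1831 after cyclic loess. In the main fit 93 and 160 passed. The 2 other probe sets of Grb10 lay below the array median on every array. The first read 7.37 and 7.51 in I1, 7.64 and 7.14 in M1 and 7.53 and 7.59 in BL185, a difference of −0.12 in I1 and −0.17 in M1. The second read 7.65 and 7.56 in I1, 8.05 and 7.35 in M1 and 7.55 and 7.46 in BL185, a difference of 0.10 in I1 and 0.19 in M1. Averaging the 3 probe sets gave −0.31 in I1 (adjusted p = 0.388) and −0.35 in M1 (adjusted p = 0.284).

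**Figure D1:**
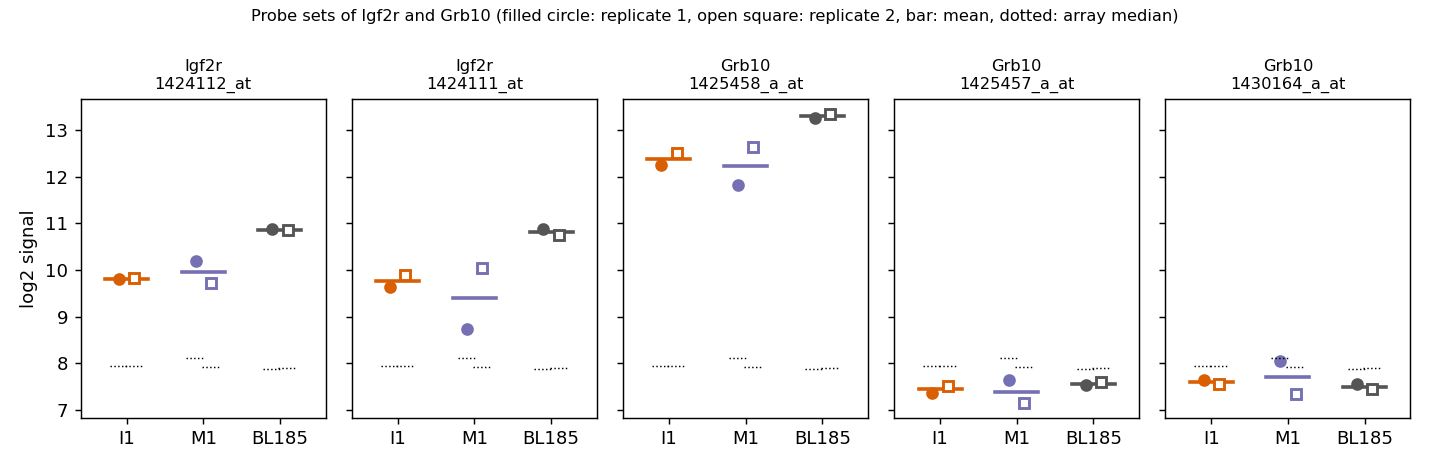
Log2 signal of the Igf2r and Grb10 probe sets (vertical axis) on each array of I1, M1 and BL185 (horizontal axis), with filled circles for replicate 1, open squares for replicate 2, bars for line means and dotted marks for array medians. Both Igf2r probe sets and 1 of the 3 Grb10 probe sets lay above the median on every array and lower in the selected lines than in BL185, and the other 2 Grb10 probe sets lay below the median.

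The 3 bright genes were lower in both selected lines without overlap with the parent. Among the 8725 genes of the table with a mean of at least 9, this held for 38.4%. Of those genes, 12.9% had an I1 change as low as that of Phlda2, 8.23% as low as that of Igf2r and 11.3% as low as that of Grb10. In M1 these shares were 9.05%, 22.6% and 16.2%. The median change of the bright genes of the whole table was −0.16 in I1 and −0.38 in M1, and the median of these 3 was −0.93 and −1.08.

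**Figure D2:**
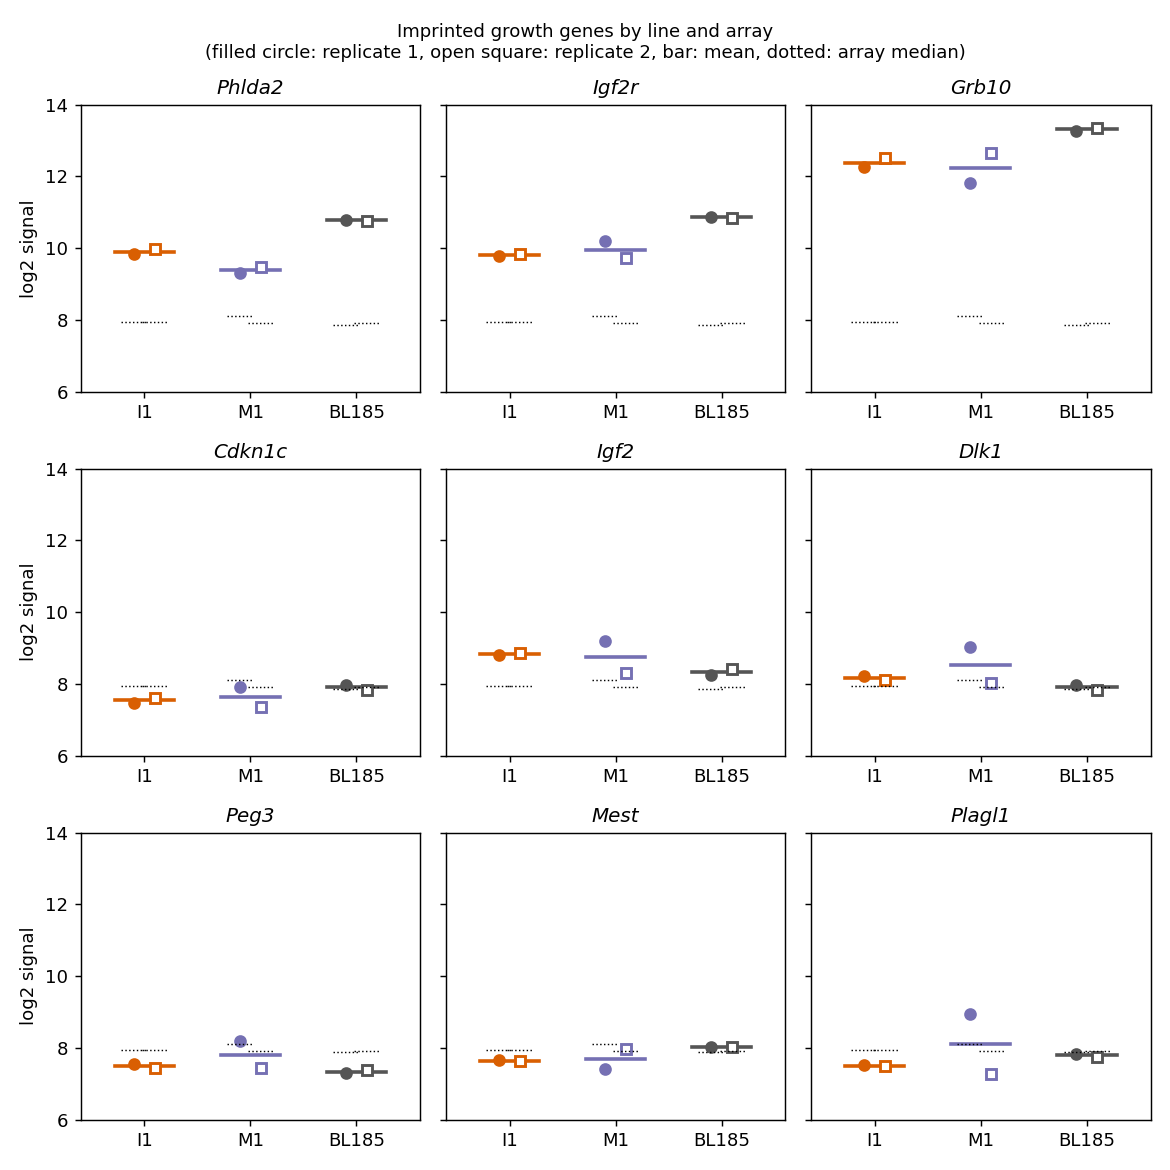
Log2 signal of the probe set used for each of the 9 measured genes (vertical axis) on each array of I1, M1 and BL185 (horizontal axis), with filled circles for replicate 1, open squares for replicate 2, bars for line means and dotted marks for array medians. Phlda2, Igf2r and Grb10 lay above the medians and below BL185 in both selected lines. Of the other 6 genes, Igf2 lay above the medians by less, and the rest lay around or below them. Levels of different probe sets are not comparable with each other.

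Cdkn1c, a cyclin-dependent kinase inhibitor that stops the cell cycle in the embryo, is the remaining maternally expressed gene with a probe set. It read 7.46 and 7.62 in I1, 7.93 and 7.36 in M1 and 7.98 and 7.84 in BL185. The I1 arrays lay below the parent and the M1 arrays overlapped it. The log2 change was −0.37 ± 0.25 in I1 (adjusted p = 0.649) and −0.27 ± 0.25 in M1 (adjusted p = 0.523).

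Among the paternally expressed genes, Igf2, the fetal growth factor that signals through the IGF1 and insulin receptors, had a signal of 8.80 and 8.85 in I1, 9.19 and 8.32 in M1 and 8.25 and 8.41 in BL185. I1 was above the parent on both arrays, and in M1 replicate 1 alone was. The change was 0.49 ± 0.32 in I1 (adjusted p = 0.647, interval −0.31 to 1.29) and 0.42 ± 0.32 in M1 (adjusted p = 0.474, interval −0.38 to 1.22). Without M1 replicate 1 the M1 change was −0.02. The second Igf2 probe set read 7.65 and 7.66 in I1, 8.47 and 7.27 in M1 and 7.49 and 7.34 in BL185.

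Dlk1, a membrane protein with EGF-like repeats that marks hepatoblasts, read 8.21 and 8.11 in I1, 9.03 and 8.04 in M1 and 7.98 and 7.84 in BL185. All 4 arrays of the selected lines were above the parent, M1 replicate 1 by the most. Its change was 0.25 ± 0.35 in I1 (adjusted p = 0.783) and 0.63 ± 0.35 in M1 (adjusted p = 0.425), and 0.13 in M1 without replicate 1. Peg3, a zinc finger protein, was covered by 5 probe sets, with means between 6.65 and 7.55. The brightest of them read 7.56 and 7.44 in I1, 8.19 and 7.43 in M1 and 7.29 and 7.38 in BL185. All 5 placed the selected lines above the parent without overlap. Of all probe sets with a mean under 9 that name 1 gene, 44.5% did so in I1 and 31.9% in M1. All Peg3 probe sets but the brightest lay below the array median on every array. The Peg3 changes by probe set were 0.16 to 0.39 in I1 and 0.47 to 0.77 in M1, with adjusted p of at least 0.342. For the brightest one, the M1 value was 0.0949 without M1 replicate 1 and 0.85 without replicate 2.

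Mest, which encodes an enzyme of the alpha/beta hydrolase family, read 7.67 and 7.63 in I1, 7.40 and 7.96 in M1 and 8.03 and 8.02 in BL185. All 4 arrays of the selected lines were below the parent, with differences of −0.38 ± 0.23 in I1 (adjusted p = 0.635) and −0.34 ± 0.23 in M1 (adjusted p = 0.453). The M1 value was −0.0670 without M1 replicate 1 and −0.62 without replicate 2. Plagl1, a zinc finger transcription factor that regulates other imprinted genes in the mouse, had 3 probe sets. The one with the highest mean read 7.52 and 7.49 in I1, 8.94 and 7.28 in M1 and 7.82 and 7.76 in BL185, so the M1 arrays lay on opposite sides of the parent. Its change was −0.29 ± 0.53 in I1 (adjusted p = 0.832) and 0.32 ± 0.53 in M1 (adjusted p = 0.718), and −0.51 in M1 without replicate 1. The other Plagl1 probe sets gave 0.43 and 0.14 in I1 and 0.63 and 0.18 in M1.

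**Figure D3:**
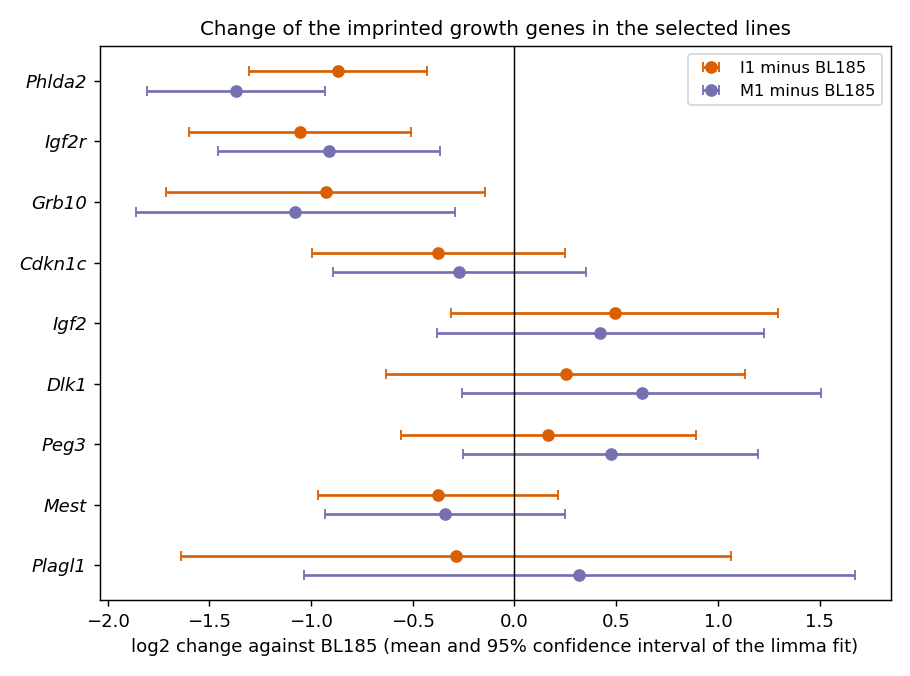
Log2 change against BL185 (horizontal axis) for each of the 9 genes (vertical axis), in I1 above and M1 below, with 95% confidence intervals of the limma fit before adjustment over genes. The intervals of Phlda2, Igf2r and Grb10 lay below 0 in both lines, and those of the other 6 genes included 0.

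Over all genes, limma with Benjamini-Hochberg adjustment called 0 of the 9 in I1 against BL185, where 0.511% of 18193 genes were called, and 1 of the 9, Phlda2, in M1, where 0.879% were. At an unadjusted p under 0.05 there were 3 of 9 in I1 (2119 of all genes, 11.6%) and 3 of 9 in M1 (2798 of all genes, 15.4%). Between I1 and M1 0 of the 9 and 0% of all genes were called, with 1 of 9 and 409 genes (2.25%) at an unadjusted p under 0.05. In I1, 6 of the 9 were lower and 3 higher without overlap between the arrays, against 33.5% and 42.6% of all genes. In M1, 4 were lower and 2 higher, against 25.7% and 26.2%. The median change of the 9 was −0.37 in I1 and −0.27 in M1, against 0.06 and 0.07 over all genes. With only the lines compared, 7 of the 9 passed in I1, when 8481 of all genes did, and 0 in M1, when 0 of all genes did. For I1, leaving out an M1 array gives this same fit. For M1 it leaves a single array without a spread of its own, so those counts are not given.

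Most dim probe sets of these genes were highest on M1 replicate 1. Of the 16 member probe sets with a mean under 9, 13 had their highest value on this array, as did 50.5% of the 21890 probe sets of that brightness that name 1 gene. Their median difference between M1 replicates 1 and 2 was 0.82, against 0.16 for all probe sets of that brightness. Among probe sets with a mean of at least 9 it was −0.87, and 72.5% of these had their lowest value on M1 replicate 1. With this array set aside, the remaining 5 values of each dim member probe set spanned between 0.19 and 0.75 log2 units. Against BL185, 12 of the 16 were higher and 4 lower without overlap in I1, and 9 were higher, 1 lower and 6 overlapping in M1. Of all probe sets of that brightness that name 1 gene, 44.5% were higher and 26.6% lower without overlap in I1, and 31.9% and 15.7% in M1.

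**Figure D4:**
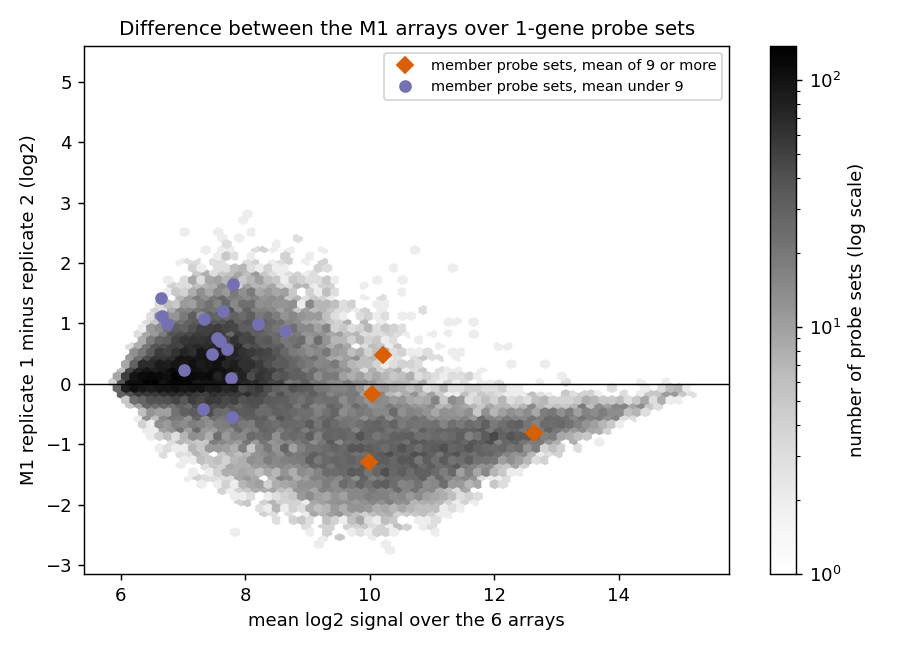
Log2 difference between M1 replicate 1 and replicate 2 (vertical axis) against the mean log2 signal over the 6 arrays (horizontal axis) for all probe sets that name 1 gene, in grey by density on a log scale. Purple circles are the 16 member probe sets with a mean under 9, of which 14 lie above 0, and orange diamonds the 4 with a mean of 9 or more, of which 1 lies above 0.

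A wider list of 66 imprinted genes, which includes the 10, had 58 measured genes, 22 of them with a mean of at least 9. Phlda2 in M1 was the single call of this list in either line. At an unadjusted p under 0.05 there were 6 of 58 in I1 and 9 of 58 in M1, against 11.6% and 15.4% of all genes. The median difference of its 22 bright genes was −0.15 in I1 and −0.34 in M1, against −0.16 and −0.38 for all bright genes. Ddc, aromatic L-amino acid decarboxylase, read 10.42 and 10.90 in I1, 8.37 and 9.82 in M1 and 11.73 and 11.75 in BL185. The selected lines lay below the parent on all arrays, with differences of −1.08 ± 0.50 in I1 (adjusted p = 0.513) and −2.65 ± 0.50 in M1 (adjusted p = 0.0987), while its second probe set gave 0.14 and 0.29. Copg2, a coatomer subunit next to Mest, differed by −0.89 in I1 and −1.29 in M1 (adjusted p = 0.638 and 0.36). Pon3, a paraoxonase, was −0.61 in I1 (adjusted p = 0.289) and −1.08 in M1 (adjusted p = 0.0839), below the parent on all 4 arrays. Trappc9, a subunit of a trafficking complex, was −1.08 in M1 (adjusted p = 0.291), and its 2 other probe sets gave 0.16 and 0.42.

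On the higher side, Meg3, the maternally expressed noncoding RNA of the Dlk1 domain, read 9.68 and 10.30 in I1, 11.50 and 9.32 in M1 and 9.07 and 9.18 in BL185. Its difference was 0.86 ± 0.72 in I1 (adjusted p = 0.699) and 1.28 ± 0.72 in M1 (adjusted p = 0.426), with M1 replicate 1 far above replicate 2. Its 10 other probe sets gave smaller values, −0.30 to 0.44 in I1 and −0.26 to 0.61 in M1. Mcts2, a retrogene whose probes may also read its parent gene, was 0.80 in I1 and 0.59 in M1 (adjusted p = 0.421 and 0.414). Snrpn, of the splicing machinery, was 0.74 in I1 (adjusted p = 0.687). Gab1, a docking protein of growth factor receptors, was 0.72 in I1 (adjusted p = 0.316) and 0.63 in M1 (adjusted p = 0.301), while its 2 other probe sets gave 0.14 and −0.08 in I1 and −0.14 and 0.13 in M1. None of these imprinted genes beside Phlda2 passed the test.

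The genes beside the 3 bright members were lower in some cases and higher in others. Of the 5 protein-coding genes on each side of Phlda2, 9 of 10 were measured. Of these, 4 were lower and 4 higher without overlap in I1, and 3 and 2 in M1. Over all genes the shares were 33.5% lower and 42.6% higher in I1 and 25.7% and 26.2% in M1, which also stand beside the neighbour counts of Igf2r and Grb10. Next to Phlda2 lie Slc22a18, a transporter gene of the same imprinted domain (0.23 in I1 and 0.26 in M1), and Nap1l4, a histone chaperone (0.21 and −0.08), with adjusted p of at least 0.608. Beyond Nap1l4, Cars, a cysteinyl-tRNA synthetase, read 10.89 and 11.19 in I1, 10.51 and 11.29 in M1 and 12.25 and 12.28 in BL185. Its differences of −1.23 in I1 (adjusted p = 0.204) and −1.36 in M1 (adjusted p = 0.141) did not pass. Around Igf2r, 8 of 10 were measured, with 1 lower and 4 higher in I1 and 0 and 2 in M1. Around Grb10, 9 of 10 were measured, with 2 lower and 5 higher in I1 and 2 and 3 in M1. The 2 lower ones were its direct neighbours in both lines, Ddc and Cobl, an actin nucleator. Cobl read 8.98 and 8.99 in I1, 7.62 and 8.75 in M1 and 10.60 and 10.58 in BL185, a difference of −1.60 in I1 (adjusted p = 0.198) and −2.40 in M1 (adjusted p = 0.0717).

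The genes whose values over the 6 arrays, centred on their own mean, were nearest to those of Phlda2 were Atp6v0e2, Ypel3, Sh3bp2, Nap1l3 and Kif21b. Their root mean square differences from it were 0.08, 0.09, 0.09, 0.10 and 0.11 log2 units. The nearest, Atp6v0e2, a subunit of the vacuolar proton pump, read 10.37 and 10.37 in I1, 9.64 and 9.94 in M1 and 11.28 and 11.16 in BL185. This is a description over 6 arrays that share their lines.

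The IGF pathway into which Igf2, Igf2r and Grb10 feed was followed in a list of 29 genes, of which 27 were measured and 20 were bright. limma called 0 of them in I1 and 0 in M1, with 8 and 9 of 27 at an unadjusted p under 0.05 (11.6% and 15.4% of all genes), and their median difference was 0.03 and 0.13. Igf1, the postnatal growth factor of the family, read 11.31 and 11.67 in I1, 9.84 and 11.28 in M1 and 9.49 and 9.28 in BL185. All arrays of both selected lines were above the parent, by 2.11 ± 0.49 in I1 (adjusted p = 0.186) and 1.17 ± 0.49 in M1 (adjusted p = 0.343), and its 3 other probe sets were higher too. The insulin receptor gene Insr read 8.96 and 8.998 in I1, 8.17 and 9.65 in M1 and 10.54 and 10.30 in BL185. Its difference was −1.45 in I1 (adjusted p = 0.348) and −1.51 in M1 (adjusted p = 0.26), while its 2 other probe sets gave 0.00 and 0.11 in I1 and 0.08 and 0.37 in M1.

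Hmga2, a chromatin protein typical of fetal cells, read 12.09 and 12.49 in I1, 12.03 and 12.94 in M1 and 13.64 and 13.77 in BL185. Its difference was −1.41 ± 0.35 in I1 (adjusted p = 0.203) and −1.22 ± 0.35 in M1 (adjusted p = 0.219), and its 3 other probe sets were negative in both lines. Htra1, a secreted protease that can cleave IGF-binding proteins, read 11.71 and 12.05 in I1, 10.66 and 11.85 in M1 and 13.38 and 13.51 in BL185. It lay below the parent on all 4 arrays, with differences of −1.57 in I1 (adjusted p = 0.233) and −2.19 in M1 (adjusted p = 0.101). The receptor substrate Irs1 (0.50 in I1 and 1.16 in M1) and the binding protein Igfbp7 (0.52 and 0.35) were above it on all arrays, with adjusted p of at least 0.338. The IGF1 receptor gene, Igf1r, differed by 0.10 in I1 and 0.27 in M1 (adjusted p = 0.921 and 0.665).

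All 10 relatives of the members in a list of close family genes were measured. limma called 0 of them in either line, with 1 in I1 and 3 in M1 at an unadjusted p under 0.05 (11.6% and 15.4% of all genes), and the median difference was −0.02 and −0.16. Phlda3, a p53 target of the same family as Phlda2, read 12.16 and 12.01 in I1, 11.80 and 12.23 in M1 and 10.86 and 10.72 in BL185. It lay above the parent on all 4 arrays, by 1.29 ± 0.22 in I1 (adjusted p = 0.0996) and 1.23 ± 0.22 in M1 (adjusted p = 0.0878). Phlda1, the remaining gene of that family, differed by 0.32 in I1 and 0.17 in M1 (adjusted p = 0.647 and 0.631). Cdkn1a, the p53-induced relative of Cdkn1c, read 12.41 and 12.38 in I1, 10.48 and 11.60 in M1 and 12.54 and 12.48 in BL185. Its difference was −0.11 in I1 (adjusted p = 0.911) and −1.47 in M1 (adjusted p = 0.186). In the limma fit over all probe sets, the second probe set of Cdkn1a gave −0.22 in I1 (adjusted p = 0.617) and −1.35 in M1 (adjusted p = 0.0381). That M1 value passed the threshold, although the probe set used for the gene did not. Dlk2, the relative of Dlk1, was 0.97 in I1 and 1.36 in M1 (adjusted p = 0.487 and 0.249), and Plagl2 was −1.08 and −0.98 (adjusted p = 0.525 and 0.414). The 3 other Plagl2 probe sets gave 0.39, −0.86 and −0.22 in I1 and 0.41, −0.63 and 0.02 in M1. M6pr, the second mannose 6-phosphate receptor, was −0.32 and −0.52, and Cdkn1b, a further kinase inhibitor, −0.40 in I1, with adjusted p of at least 0.442. The second probe set of Cdkn1b gave 0.54 in I1.

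Genes that keep or read imprints formed a list of 21, of which 20 were measured and 14 were bright. limma called 0 in either line, with 2 in I1 and 3 in M1 at an unadjusted p under 0.05 (11.6% and 15.4% of all genes), and the median difference was 0.21 and 0.15. Uhrf1, which brings the maintenance methyltransferase to newly copied DNA, read 10.81 and 11.12 in I1, 10.67 and 11.85 in M1 and 9.23 and 8.91 in BL185. It lay above the parent on all 4 arrays, by 1.90 ± 0.42 in I1 (adjusted p = 0.17) and 2.19 ± 0.42 in M1 (adjusted p = 0.103), and its second probe set gave 0.32 and 0.55. The methyltransferase gene Dnmt1 itself differed by 0.48 in I1 and 0.63 in M1 (adjusted p = 0.68 and 0.431), and the insulator protein gene Ctcf by 0.02 and −0.0081. The deacetylase Hdac1 (0.91 and 0.86) and the Polycomb methyltransferase Ezh2 (0.82 and 0.89) were above the parent on every array of both lines, with adjusted p of at least 0.211. The methylcytosine oxidase Tet2 (−0.88), the H3K9 methyltransferase Setdb1 (−0.59) and the Polycomb subunit Eed (−0.52) were below it on both I1 arrays, with adjusted p of at least 0.621. In I1 the 2 other probe sets of Setdb1 gave 0.59 and −0.17, and the second of Eed −0.0026. Ehmt2, another H3K9 methyltransferase, was −0.71 in M1 (adjusted p = 0.264).

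**Figure D5:**
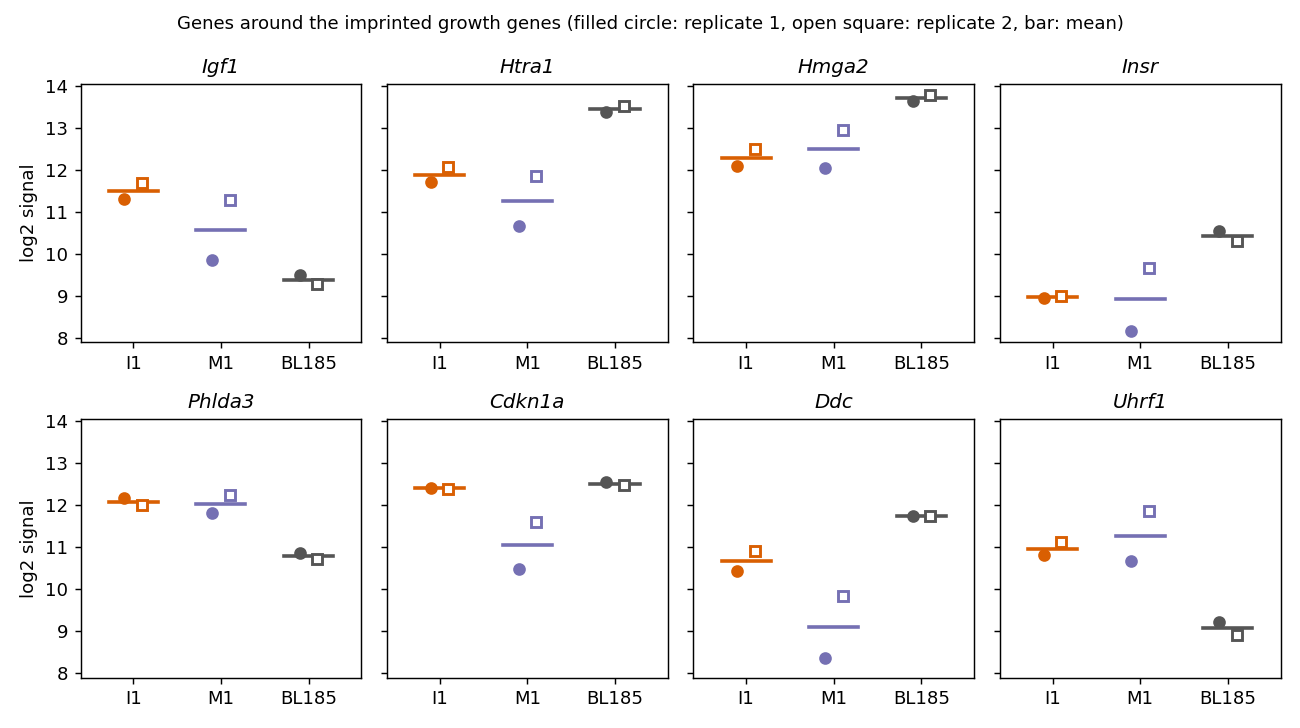
Log2 signal (vertical axis) of 8 genes of the lists around the imprinted growth genes on each array of I1, M1 and BL185 (horizontal axis), with filled circles for replicate 1, open squares for replicate 2 and bars for line means. Igf1, Phlda3 and Uhrf1 were above and Htra1, Hmga2, Insr and Ddc below BL185 on all 4 arrays of the selected lines, and Cdkn1a was below it in both but close to it in I1.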

How the data were processed

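Total RNA was extracted with Trizol, prepared with Affymetrix's 3′ IVT Express reagents and measured on mouse arrays, per the labels' protocols. Log2 signals, 1 for each array and probe set, were deposited by the authors and were made with RMA and the affy package per the submitters' processing notes. The log2 scale was read from the range of values (5.80 to 15.4). No version, setting or chip definition was stated. No detection calls were used, and precision is limited by having 2 arrays a line.

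Of 45101 probe sets, 34945 named 1 gene, 932 several, 64 were controls and 9160 others named none. RefSeq (GRCm38.p6) held 34741 of the first by Entrez identifier and altered 0 names. The brightest probe set per gene was kept, giving 18193 genes. With limma 3.58.1 (R 4.3.3), line means were fitted over the 6 arrays together (3 residual and 2.27 prior degrees of freedom), with eBayes and Benjamini-Hochberg adjustment within a contrast at 0.05. The spread is shared by all lines and set largely by M1. Values for single probe sets come from the same fit over all probe sets that are not controls. The fit was run on simulated data with changes of known size put into I1. Recovery was required only for the largest of these changes, with the spread of BL185, the smallest of the lines, in every line. It therefore does not show how well smaller changes are found at the spread of M1.

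Groups and replicate numbers came from the sample titles. The members, the gene lists, the threshold of 9 and the neighbour rule were chosen with earlier results of these data known. Named genes were all members, called list genes, and per list, line and direction up to 3 genes with the largest change among those without overlap and with a higher mean of at least 9, and the 5 genes nearest to a called member, to which Dnmt1, Ctcf, Igf1r, Phlda1 and the neighbours, and Pon3 in M1 and Gab1 in I1, were added after their values were seen. Alternatives were averaging probe sets within genes, testing all probe sets, a minimum mean of 8, quantile normalization, cyclic loess, median centring, an offset of 50 on the linear scale, an intensity trend in eBayes, array weights, a replicate block, fitting only the lines compared and leaving out each array. A crossed replicate block was added after the data were seen. All sample columns were used. Tables and figures were made in Python 3.11.15 with pandas 2.3.3 and matplotlib 3.10.9.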

Additional observations from a re-analysis of the deposited data

How the results depend on the processing

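The changes of Phlda2, Igf2r and Grb10 against BL185 were negative in both lines under every alternative. In I1 they lay between −0.95 and −0.56 (Phlda2), −1.11 and −0.74 (Igf2r) and −1.05 and −0.31 (Grb10). In M1 they lay between −1.49 and −0.95, −1.16 and −0.42, and −1.49 and −0.35. Only quantile normalization, cyclic loess, median centring and averaging of probe sets could have turned these signs. The other alternatives left the estimate as it was or kept the selected line's arrays below the parent. With 2 arrays a line and a spread set largely by M1, the counts of calls were not stable. For I1 minus BL185, the counts of members, of the wider imprinted list and of all genes (0, 0 and 93 in the report) were 1, 2 and 981 after quantile normalization, 1, 2 and 1544 after cyclic loess, 6, 22 and 8551 with array weights and 7, 23 and 8481 with only the lines compared. The count of all genes was also 166 with every probe set, 23 after median centring and 1 with a replicate block. For M1 minus BL185 (1, 1 and 160), they were 0, 0 and 57 after median centring, 2, 5 and 1176 after quantile normalization, and 0, 0 and 38 with a replicate block. They were 0, 0 and 0 with only the lines compared. Members and list were both 0 with a minimum mean of 8 and with eBayes trend. Cyclic loess gave 1 member (Grb10, not Phlda2), 5 in the list and 1831 genes, averaged probe sets 2 and 338, and array weights 0 members and 312 genes. For I1 minus M1, with 0 calls in the report, all genes numbered 1 with a minimum mean of 8, 6 after quantile normalization, 51 after cyclic loess and 2 with array weights. Leaving out 1 array gave 0 to 7 members, 0 to 23 of the list and 0 to 8481 genes for I1 minus BL185, 0 to 8, 0 to 42 and 0 to 12879 for M1 minus BL185, and 0 to 8, 0 to 38 and 0 to 10365 for I1 minus M1. Leaving out an M1 array removes most of the spread, and the counts without any I1 or BL185 array were 0 for both comparisons with the parent. Same-numbered arrays did not share deviations throughout (r = 0.37 for I1 and M1, 0.16 for I1 and BL185, −0.13 for M1 and BL185), so the block uses the numbers only. With crossed numbers, M1 minus BL185 had 0 members, 0 of the list and 76 genes.

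Some signs turned, not only of values near 0. For I1 minus M1, Grb10 was −0.0498 after quantile normalization and −0.0549 after cyclic loess, Igf2 −0.0722 with averaged probe sets and −0.0520 after quantile normalization, Igf2r 0.11 with averaged probe sets, Mest 0.0423, 0.0713 and 0.0416 after quantile normalization, cyclic loess and median centring, and Cdkn1c 0.0013 after cyclic loess. For I1 minus BL185, Plagl1 was 0.0940 with averaged probe sets. With 1 array left out, M1 minus BL185 ranged from −0.56 to 0.0148 for Cdkn1c, −0.0154 to 0.86 for Igf2 and −0.51 to 1.15 for Plagl1. I1 minus M1 then ranged from −0.39 to 0.18 (Cdkn1c), −0.87 to 0.12 (Dlk1), −0.26 to 0.56 (Grb10), −0.37 to 0.51 (Igf2), −0.38 to 0.0911 (Igf2r), −0.31 to 0.24 (Mest), −0.68 to 0.0716 (Peg3) and −1.43 to 0.22 (Plagl1). The cause of these changes was not tested.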
